A study of Arabidopsis thaliana with 18 samples.

Results

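The comparison described here set RNA levels in the Arabidopsis thaliana triple mutant tga2-5-6 against those in the accession Col-0 when both had been treated for 4 h with 75 µM phytoprostane A1 (PPA1). It contrasted 6 of the series' 18 Affymetrix arrays, 3 per genotype, chosen by their labels, with the spread of each probe set estimated from all 18. The other arrays hold the same genotypes after 4 h in 0.5% methanol in water (control, 6 arrays) or 4 h with 75 µM oxo-phytodienoic acid (OPDA, 6 arrays), with 3 replicates in each group. The control arrays served to separate genotype differences that were already there without the compound from those seen with it. The labels give no alleles for the mutant, no plant age and no organ. The labels call the replicates independent without saying whether they were separate cultures or plants, so the p-values measure the spread between these samples.

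TGA2, TGA5 and TGA6 are closely related bZIP transcription factors that bind TGACG-type promoter elements and act with the co-regulator NPR1 in salicylic acid signalling and defence. They are also known for the induction of genes for the detoxification of foreign and reactive compounds, such as glutathione S-transferases. PPA1 and OPDA are oxylipins with a cyclopentenone ring, an electrophilic group that reacts with thiols. OPDA is an enzymatic precursor of jasmonic acid, whereas phytoprostanes form by free-radical oxidation of linolenic acid.

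Under PPA1 the mutant had far lower levels of several genes for the handling of reactive carbonyls and other electrophiles. The tau-class glutathione S-transferase GSTU25 and the organic cation transporter OCT5 were among the 8 named genes with the lowest log2 differences, and the alkenal reductase AER and an enzyme of auxin oxidation, AT1G14130, were lower as well. A smaller group was higher in the mutant, led by the cell wall protein gene ECS1, with the transcription factor gene WRKY53 and the receptor-like kinase gene AT1G35710 in it. A probe set passed when limma's adjusted p (Benjamini-Hochberg over 21869 probe sets) was under 0.05 and the change at least 2-fold. Of the genes just named, all but AT1G14130 also passed in control in the same direction. Over 6 fits that left out 1 control array, this control call was lost in 6 for AT1G35710 and in 5 for AER and WRKY53. It was lost in 3 for GSTU25 and in 0 for OCT5 and ECS1. By the rule above 344 probe sets passed under PPA1, which is 1.57% of those tested. Of these 193, 0.883% of those tested, were lower and 151, 0.69%, higher in the mutant. The arrays of the 2 genotypes did not overlap in any of the 344, and they did not overlap in 18.2% of all probe sets tested, 9.39% with the mutant lower and 8.78% with it higher. The called probe set nearest to the fold limit had a log2 difference of 1.00, and the one just outside it had 0.99. The highest adjusted p among those called was 0.0499. Of the lower probe sets 90 had 1 gene in the array's annotation, and of the higher ones 76 had. The median log2 difference over all probe sets tested was -0.02.

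**Figure D1:**
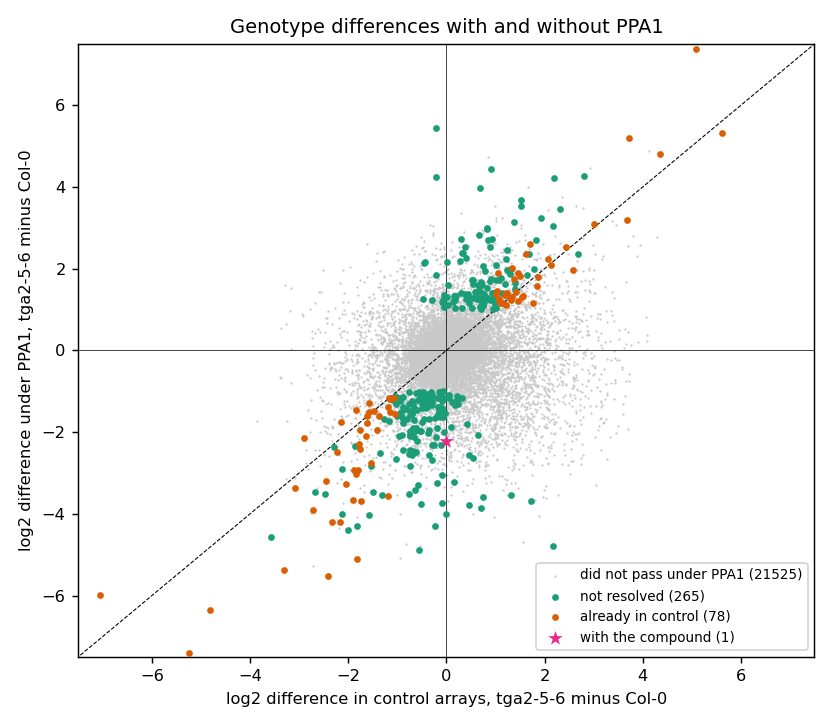
Each point is 1 probe set, with the log2 difference between tga2-5-6 and Col-0 in control on the x axis and under PPA1 on the y axis, coloured by class for the 344 that passed under PPA1. Most of the 193 lower and 151 higher probe sets lie on the same side of 0 in control, and many lie nearer to 0 there than under PPA1. They were chosen under PPA1, so larger differences there were favoured by the choice.

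The mutated genes themselves could not be read, since 0 probe sets were assigned to TGA2, TGA5 or TGA6, so the genotype labels were not checked through them. None of the measured genes within 10 loci of the 3 passed under PPA1. Each array had the same trimmed mean intensity, 500.05. Correlations of log2 values ran from 0.914 to 0.933 within the PPA1 groups and from 0.905 to 0.917 between them, and 0 pairs of arrays were identical. The GAPDH 3'/5' ratio, a measure of RNA integrity, was 1.14 ± 0.394 in Col-0 and 0.953 ± 0.0721 in tga2-5-6 under PPA1 (mean ± SD, n = 3 arrays, as for all group values here). The actin 3'/5' ratio was 28.7 ± 3.21 and 29.4 ± 3.47, and in control it was 34.4 ± 11.7 and 48.3 ± 16.8; its part in the control differences was not tested. Of the organ markers 2 of 18 leaf genes were measured, with a summed intensity of 31328 to 37844 in Col-0 and 32583 to 34385 in tga2-5-6 under PPA1. Of 14 root genes only EXPA7, an expansin of root hairs, was measured, at 81.3, 84.5 and 15.6 in Col-0 and 117, 68.6 and 83.6 in tga2-5-6 under PPA1, and of 4 flower genes 0 were measured. Where plant material holds several cell types, fewer cells of a type and less RNA per cell cannot be told apart.

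Among the reductases that act on reactive carbonyls, AER separated the genotypes clearly under PPA1. AER encodes an alkenal reductase, which uses NADPH to saturate the double bond beside a carbonyl group. Its intensities under PPA1 were 4207, 5104 and 4999 in Col-0 and 398, 448 and 369 in tga2-5-6. The lowest Col-0 array was thus far above the highest mutant array. The log2 difference was -3.56 ± 0.22 (SE; limma adjusted p = 1.59e-06). In control AER was at 1063 ± 306 in Col-0 and 455 ± 43.7 in tga2-5-6, a log2 difference of -1.19 ± 0.22 with adjusted p = 0.0284. AER rose with PPA1 in Col-0, by 2.20 ± 0.22 on the log2 scale (adjusted p = 7.27e-05). In tga2-5-6 the change with PPA1 was -0.17, with a 95% interval of -0.64 to 0.30 and adjusted p = 0.727. These response values share the 6 PPA1 arrays with the comparison of the genotypes under PPA1. Over all probe sets tested, 546 (2.5%) passed with PPA1 in Col-0, of which 358 (1.64%) rose and 188 (0.86%) fell. In tga2-5-6 592 (2.71%) passed, with 312 (1.43%) that rose and 280 (1.28%) that fell, a split of 390 to 212 with arrays centred on their medians and 360 to 176 after quantile normalization.

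AT5G16980, the neighbouring gene and a homologue of AER, read 728, 986 and 1156 in Col-0 and 28.5, 29.5 and 24.7 in tga2-5-6 under PPA1. All 3 mutant arrays lay below the Col-0 control mean of 195, and the groups did not overlap. This gave a log2 difference of -5.10 ± 0.38 with adjusted p = 8.02e-06, and in control it was -1.82 ± 0.38 with adjusted p = 0.0487. The 2 genes resemble each other in sequence, and whether their probe sets also bind each other's RNA was not tested.

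Among glutathione S-transferases, which attach glutathione to electrophiles, GSTU25 had the lowest log2 difference of the named genes. Its intensities were 7493, 6106 and 6381 in Col-0 under PPA1 and 251, 131 and 91.4 in tga2-5-6. No mutant array came near the Col-0 range, and the mutant mean of 158 ± 83.1 under PPA1 was below the Col-0 control mean of 255 ± 67.2. On the log2 scale the genotypes differed by -5.52 ± 0.44 (adjusted p = 1.76e-05), against -2.41 ± 0.44 in control (adjusted p = 0.0284). GSTU25 rose by 4.74 ± 0.44 on the log2 scale with PPA1 in Col-0 (adjusted p = 4.89e-05), and the change in the mutant was 1.63 ± 0.44 (adjusted p = 0.0549). The difference between these responses, -3.11 ± 0.63, had an adjusted p of 0.162 and did not pass.

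GSTU22 was at 2603, 1447 and 1219 in Col-0 and 251, 402 and 285 in tga2-5-6 under PPA1. The Col-0 arrays spread more widely than the mutant ones but stayed above them all. The genotypes differed, on the log2 scale, by -2.44 ± 0.30 with adjusted p = 0.000617, and in control by -0.75 with adjusted p = 0.344. GSTU22 rose with PPA1 in both genotypes, by 3.70 in Col-0 (adjusted p = 1.94e-05) and by 2.004 in tga2-5-6 (adjusted p = 0.0025). GSTU16 read 691, 572 and 604 in Col-0 and 178, 419 and 213 in the mutant, a log2 difference of -1.30 ± 0.30 (adjusted p = 0.0373). This call was lost in 5 of 6 fits that left out 1 array, with adjusted p up to 0.169. The other 8 of 11 tau-class probe sets did not pass. GSTU20, the brightest of them, was at 5272 ± 291 and 6546 ± 421, with a log2 difference of 0.31 (adjusted p = 0.534). The median over the 11 was -0.21, and 0 of 2 phi-class probe sets passed. Over all probe sets tested 0.883% were lower and 0.69% higher by the same rule. The tau-class list was drawn up with earlier results of these data known, so its count is no independent evidence of a direction.

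Of the list of detoxification genes outside the transferase families, 8 of 15 genes were measured, and 7 of these were lower in tga2-5-6 under PPA1 while 0 were higher. Of all probe sets tested 0.883% were lower by the same rule. Their median log2 difference was -2.29, and 4 of the 8 were also lower in control. The list was drawn up with earlier results of these data known, so its count is no independent evidence of a direction. Besides AER and AT5G16980 it held AT4G13180, a dehydrogenase of the short-chain type, which read 5683, 5886 and 6650.1 in Col-0 and 1093, 998 and 1150.4 in the mutant. That gap, -2.49 ± 0.29 on the log2 scale (adjusted p = 0.000442), was nearly as wide in control, -2.23 ± 0.29 (adjusted p = 0.00284). AT4G13180 rose with PPA1 in both genotypes, by 2.65 in Col-0 and 2.38 in tga2-5-6, and the difference of the responses had a 95% interval of -1.15 to 0.62. AT5G61820, known as a stress-induced gene, was at 10884 ± 1829 in Col-0 and 4178 ± 831 in tga2-5-6 under PPA1. Its log2 differences were -1.39 ± 0.17 under PPA1 (adjusted p = 0.000639) and -1.20 in control (adjusted p = 0.0064).

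The aldo-keto reductase gene AT1G60750 had one of the widest gaps and one of the weakest tests. It was at 632, 621 and 628 in Col-0 and 18.5, 19.5 and 90.4 in tga2-5-6 under PPA1, while both control groups were below 16. One mutant array stood apart from the other 2 but still far below Col-0. The adjusted p was 0.0463, and it reached 0.181 when 1 of the 6 arrays was left out, with the call lost in 5 of the 6 fits. AT3G04000, an aldehyde reductase, was at 561 ± 116 and 141 ± 74.7 (log2 difference -2.09 ± 0.41, adjusted p = 0.0157). AT1G75280, of the isoflavone reductase type, was at 9549 ± 2776 and 2333 ± 1002 (log2 difference -2.08 ± 0.43, adjusted p = 0.0217). Both lost their call when 1 array was left out, AT3G04000 in 4 and AT1G75280 in 5 of 6 fits. AT1G60730, a further aldo-keto reductase, did not pass, at 672 ± 105 in Col-0 and 295 ± 43.1 in tga2-5-6 (adjusted p = 0.237). The count of 7 fell to 4 without Col-0 PPA1 replicate 2, without Col-0 PPA1 replicate 3 or without tga2-5-6 PPA1 replicate 1. AT4G19880, of a glutathione transferase family, was outside the lists and was lower in the mutant, at 4195 ± 1200.5 against 12368 ± 909 under PPA1 (adjusted p = 0.00105) with a log2 difference of -1.38 in control (adjusted p = 0.0105).

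OCT5 encodes a member of the organic cation transporter family. Under PPA1 it read 1036, 1145 and 1556 in Col-0 and 53.5, 63.2 and 88.6 in tga2-5-6. The mutant arrays were at the level of the mutant control, 69.98 ± 25.9, whereas Col-0 under PPA1 lay above its own control of 337 ± 42.4. The log2 difference was -4.20 ± 0.27 under PPA1 (adjusted p = 2.31e-06) and -2.34 ± 0.27 in control (adjusted p = 0.00138). The other 2 measured transporters of its list did not pass under PPA1, where 0.883% of all probe sets tested were lower.

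**Figure D2:**
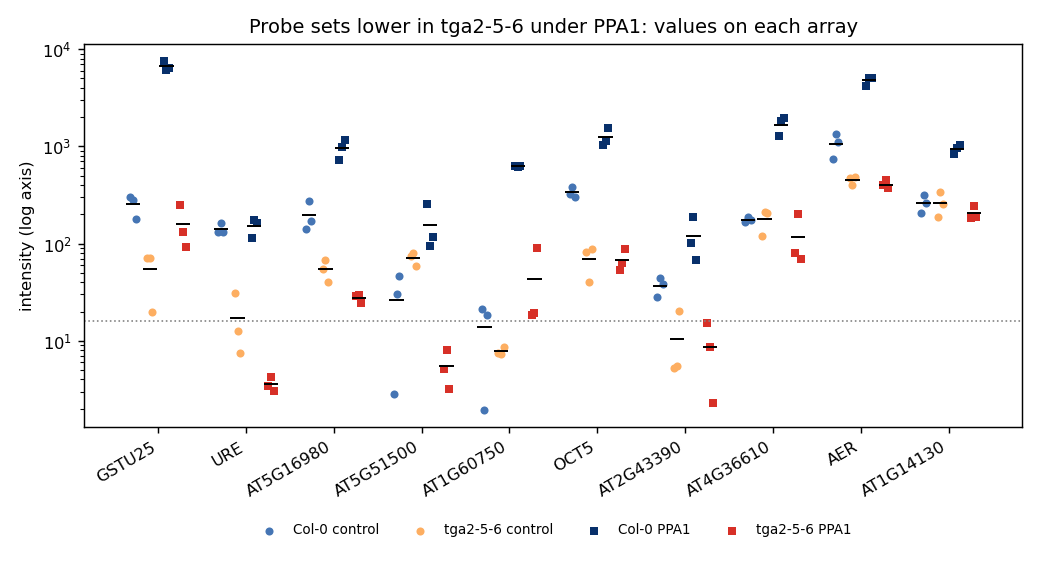
Intensity on a log10 axis of the named genes with the lowest log2 differences under PPA1, and of AER and AT1G14130. There is 1 point per array and 1 colour for each genotype and treatment, in control and under PPA1. In each gene the 3 tga2-5-6 arrays under PPA1 lie below the 3 Col-0 arrays, as for GSTU25 with 251, 131 and 91.4 against 7493, 6106 and 6381. Arrays that do not overlap were a condition for naming the lowest genes.

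3 enzymes that inactivate the hormone auxin were lower in the mutant under PPA1; they were put side by side after their values were seen. AT1G14130 belongs to the dioxygenases that oxidise indole-3-acetic acid. It read 835, 963 and 1044 in Col-0 and 185, 244 and 188 in tga2-5-6 under PPA1. Without the compound Col-0 read 209, 313 and 262 and tga2-5-6 read 187, 343 and 258. The control arrays of both genotypes and the mutant PPA1 arrays thus overlapped, and the Col-0 PPA1 arrays alone lay above them. This gave a log2 difference of -2.21 ± 0.21 under PPA1 (adjusted p = 6.19e-05) and -0.01 in control, with a 95% interval of -0.46 to 0.43. AT1G14130 rose by 1.87 ± 0.21 with PPA1 in Col-0 (adjusted p = 0.000163), and in tga2-5-6 the interval of the change was -0.77 to 0.12 (adjusted p = 0.416).

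IAGLU, which joins glucose to indole-3-acetic acid, was at 1473, 1473 and 2667 in Col-0 and 358, 325 and 308 in tga2-5-6 under PPA1. The mutant arrays kept close together, below the Col-0 control mean of 473 ± 21.8. On the log2 scale the genotypes differed by -2.45 ± 0.23 (adjusted p = 6.19e-05), and the control difference of -0.88 ± 0.23 did not pass (adjusted p = 0.12). UGT74D1, a glucosyltransferase that also acts on auxins, was at 1397, 1876 and 1976 in Col-0 and 402, 523 and 599.6 in tga2-5-6, a log2 difference of -1.79 ± 0.19 (adjusted p = 0.000225). Its control difference of -0.88 did not pass (adjusted p = 0.0622). For comparison, 0 of 11 measured genes of auxin response and conjugation passed under PPA1, where 1.57% of all probe sets tested passed. IAA29, an early auxin-response gene with the largest difference among them, was below 16 in the mutant and at 23.6 ± 9.34 in Col-0 (adjusted p = 0.108).

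The list of UDP-glycosyltransferases, enzymes that attach sugars to small molecules, held 50 measured members and did not hold IAGLU. Of the 50, 4 were lower and 0 higher under PPA1, against 0.883% lower and 0.69% higher over all probe sets. The median log2 difference of the 50 was -0.09. UGT73B5 had the lowest log2 difference of the 4, with 816, 1523 and 2158 in Col-0 and 222, 174 and 363 in tga2-5-6. Its Col-0 arrays spread widely, and each was above the mutant's highest. The genotypes differed, on the log2 scale, by -2.53 ± 0.36 (adjusted p = 0.00174) and in control by -0.76 (adjusted p = 0.423). UGT74D1 was the next, and UGT76E11 and UGT84A3, named after their values were seen, differed by -1.23 ± 0.22 (adjusted p = 0.00742) and -1.31 ± 0.27 (adjusted p = 0.0204). The call of UGT84A3 was lost in 5 of 6 fits that left out 1 array (adjusted p up to 0.0914). With only the 6 PPA1 arrays in the fit, 0 of the 4 glycosyltransferases, 1 of the 3 tau-class transferases and 3 of the 7 detoxification genes passed.

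Outside these enzyme groups AT4G36610, of the α/β-hydrolase fold, had a pattern like AT1G14130 with a wider gap. It read 1272, 1807 and 1945 in Col-0 and 79.3, 201 and 68.9 in tga2-5-6 under PPA1. In control the genotypes were close together, at 176 ± 11.3 and 179.7 ± 51.9. The log2 difference was -4.00 ± 0.44 under PPA1 (adjusted p = 0.000226), and its control interval was -0.95 to 0.93. AT1G17860, a protease inhibitor of the Kunitz type, was at 6234, 5881 and 7823 in Col-0 and 899, 1741 and 1459 in tga2-5-6, a log2 difference of -2.32 ± 0.25 (adjusted p = 0.000205). In control it was at 1917 ± 137 and 1633 ± 347 (adjusted p = 0.736). The brightest gene among the lower ones named here was AT4G01870, at 9024, 13302 and 21553 in Col-0 and 2713, 2811 and 2568 in tga2-5-6. It rose with PPA1 in both genotypes, by 3.88 and 3.39, and its genotype difference was -2.35 ± 0.42 under PPA1 (adjusted p = 0.00838) and -1.86 ± 0.42 in control (adjusted p = 0.0708).

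URE, the urease gene, differed between the genotypes in both conditions. It read 114, 175 and 162 in Col-0 under PPA1 and was below 16 in all 3 mutant arrays (adjusted p = 5.36e-05). In control it was at 142 ± 16.5 in Col-0 and 17.1 ± 12.4 in tga2-5-6 (adjusted p = 0.00823). AT5G66985 was likewise lower under both conditions, at 228 ± 43.5 against 1767 ± 535 under PPA1 (log2 difference -2.93, adjusted p = 0.000159) and -1.88 in control (adjusted p = 0.014). AT5G05960, of the lipid-transfer type, differed by -1.497 ± 0.18 under PPA1 (adjusted p = 0.000543) and by -1.57 in control. LTI30, a dehydrin of cold and drought responses, was at 4225, 6167 and 4984 in Col-0 and 1925, 1682 and 1725 in tga2-5-6 under PPA1. It rose with PPA1 in both, by 3.13 and 2.76, and the genotype difference was -1.51 ± 0.21 (adjusted p = 0.0017) against -1.15 ± 0.21 in control (adjusted p = 0.03).

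3 of the lowest genes were below 16 in the mutant, and no log2 difference is given for them. AT5G51500, of the pectin methylesterase type, read 256, 93.8 and 116 in Col-0 and was below 16 in the mutant under PPA1 (adjusted p = 0.00413). In control the mean was instead higher in the mutant, 71.0 ± 11.5 against 26.3 ± 21.9 in Col-0, without passing (adjusted p = 0.276). AT2G43390 was at 101, 188 and 68.2 against below 16 (adjusted p = 0.0417) and AT1G05450, of the lipid-transfer type, at 137, 145 and 45.0 against below 16 (adjusted p = 0.0339). Leaving out 1 array ended the call for AT2G43390 in 5 and for AT1G05450 in 4 of 6 fits, with adjusted p up to 0.15 and 0.157 respectively.

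Among oxidoreductases outside the lists, AT5G64250 was at 4249.8 ± 1247 in Col-0 and 1124 ± 193 in tga2-5-6 under PPA1 (log2 difference -1.89 ± 0.22, adjusted p = 0.000463). AT3G44190, of the FAD/NAD(P)-binding type, was at 3791, 4416 and 5951 in Col-0 and 2088, 1598 and 2141 in tga2-5-6. It rose with PPA1 in Col-0, by 2.24 (adjusted p = 4.64e-05), and the change in tga2-5-6, 0.86, was short of 2-fold (adjusted p = 0.0336). Its genotype difference was -1.27 ± 0.21 under PPA1 (adjusted p = 0.00443) and 0.11 in control (adjusted p = 0.879).

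In 6 pairs of immediate neighbours on the chromosome both genes were called, and each pair changed in the same direction. These 6 are 0.111% of 5415 measured pairs of neighbours, of which 162 held at least 1 called gene, and 1.39% of the 11786 measured genes were called. AER and AT5G16980 form one. AT5G07860 and AT5G07870 encode acyltransferases of one family; the latter was at 791, 751 and 820.2 in Col-0 and 138, 138 and 203 in tga2-5-6. Their log2 differences were -2.03 ± 0.32 (adjusted p = 0.0037) and -2.33 ± 0.29 (adjusted p = 0.00062), and in control -0.38 and -0.29. AT1G21680, at 1394, 1978 and 2336 in Col-0 and 98.5, 294 and 162 in tga2-5-6, differed by -3.47 ± 0.41 (adjusted p = 0.000442), and its neighbour AT1G21670 by -1.13 ± 0.26 (adjusted p = 0.0393). AT5G10830, of the methyltransferase type, and its neighbour AT5G10820, a membrane transporter, differed by -2.22 ± 0.23 (adjusted p = 0.000153) and -1.100 ± 0.19 (adjusted p = 0.00538). The pairs that were higher in the mutant were AT2G43610 with AT2G43620 and AT5G23830 with AT5G23840. The second of these, proteins with a lipid-recognition domain, differed by 1.37 ± 0.24 (adjusted p = 0.00674) and 1.85 ± 0.36 (adjusted p = 0.0135). Calls that ended without 1 array in this set were those of AT1G21670, in 4 of 6 fits, and AT5G23840, in 3 of 6.

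The genes that were higher in the mutant were led by ECS1, a gene for a small cell wall protein linked to defence. Under PPA1 it read 3418, 1853 and 1723 in Col-0 and 16844, 22300.1 and 18429 in tga2-5-6. The groups were as far apart in control, at 2293 ± 105 and 18491 ± 2610.2. This gave a log2 difference of 3.10 ± 0.33 under PPA1 (adjusted p = 0.000193) and 3.002 ± 0.33 in control (adjusted p = 0.000999), and the interval of the difference between the responses was -0.90 to 1.098. AT2G25510, the brightest of the higher genes named here, was at 8094, 6531 and 6430.1 in Col-0 and 26268, 27357 and 28088 in tga2-5-6. Its log2 difference was 1.96 ± 0.17 under PPA1 (adjusted p = 3.52e-05) and larger in control, 2.59 ± 0.17 (adjusted p = 7.23e-06).

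WRKY53 encodes a transcription factor of leaf senescence and defence. It was at 151, 179 and 205 in Col-0 and 694, 844 and 615 in tga2-5-6 under PPA1, with all mutant arrays above all those of Col-0. On the log2 scale the genotypes differed by 2.01 ± 0.25 (adjusted p = 0.00068) and in control by 1.34 ± 0.25 (adjusted p = 0.0323). The other 6 of 7 measured WRKY genes did not pass under PPA1. Of 20 listed genes of salicylic acid signalling and defence only 3 were measured. ECS1 and WRKY53 were higher under PPA1 and in control, and PDF1.2b, a defensin, was at 2399.6 ± 3759 and 1429 ± 2207 under PPA1 (adjusted p = 0.943). Over all probe sets tested 0.69% were higher under PPA1 and 0.297% in control. The list was drawn up with earlier results of these data known, so its count is no independent evidence of a direction.

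The next genes encode receptor-like kinases, membrane proteins that sense outside signals; they were picked from the called genes after their values were seen, and how many of the measured kinases passed was not counted. AT1G35710, with leucine-rich repeats, read 77.5, 58.0 and 87.2 in Col-0 and 558, 530.4 and 299 in tga2-5-6. Its log2 difference was 2.61 ± 0.31 under PPA1 (adjusted p = 0.000468) and 1.71 ± 0.31 in control (adjusted p = 0.026). AT1G51790, AT1G69730 and AT1G11330 were also higher under both conditions. Their log2 differences under PPA1 were 1.26 ± 0.20, 1.31 ± 0.19 and 1.31 ± 0.22, with adjusted p = 0.00382, 0.00239 and 0.00535. In control they were 1.07, 1.27 and 1.33, with adjusted p = 0.0323, 0.0105 and 0.0159. AT4G08850 was higher by 1.09 ± 0.22 (adjusted p = 0.0195) under PPA1, a call lost in 4 of 6 fits without 1 array, and its control difference of 0.74 did not pass.

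Other defence-related products were chitinases, which cleave fungal cell wall polymers, and an osmotin. The neighbours AT2G43610 and AT2G43620, both of the chitinase family, were higher in the mutant under PPA1 and in control. AT2G43620 read 1150.3, 1851 and 2285 in Col-0 and 6611, 5617 and 6561 in tga2-5-6, and differed by 1.88 ± 0.27 (adjusted p = 0.0017) and in control by 1.45 (adjusted p = 0.0281). AT2G43610 differed by 1.41 ± 0.20 (adjusted p = 0.0017) and by 1.21 (adjusted p = 0.0156). OSM34, an osmotin-like protein, was at 3126 ± 1118 and 7975 ± 979, a log2 difference of 1.41 ± 0.21 (adjusted p = 0.0025). In control it differed by 0.92 and did not pass (adjusted p = 0.0724). AT2G39210, a membrane protein of the major facilitator type, had closely spaced arrays, with 675, 674 and 661 in Col-0 and 2776, 2694 and 2094 in the mutant. It differed by 1.90 ± 0.16 (adjusted p = 3.52e-05) and in control by 1.05 ± 0.16 (adjusted p = 0.0116).

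2 of 26 measured cytochrome P450 genes were higher, CYP71B23 and CYP71B24, by 1.31 ± 0.30 (adjusted p = 0.0423) and 1.29 ± 0.31 (adjusted p = 0.0494), and 0 were lower. Of all probe sets tested, 0.69% were higher. Both calls lay at the limit, and leaving out 1 array ended that of CYP71B23 in 6 and that of CYP71B24 in 5 of 6 fits. Of the remaining genes among the highest, AT2G32160, of the methyltransferase type, was at 100.2, 33.3 and 74.3 in Col-0 and 409, 539 and 318 in tga2-5-6 (log2 difference 2.71 ± 0.42, adjusted p = 0.00294). It differed by 1.82 ± 0.42 in control (adjusted p = 0.0741). AT5G44820 was the 1 gene with a pair of probe sets called, which differed by 2.24 ± 0.31 and 1.61 ± 0.22 (adjusted p = 0.00145 and 0.00136). AT4G39830, of the copper oxidase type, differed by 2.25 ± 0.38 (adjusted p = 0.00535). AT5G35940, of the jacalin lectin family, differed by 2.46 ± 0.54 (adjusted p = 0.032), a call lost in 4 of 6 fits that left out 1 array.

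**Figure D3:**
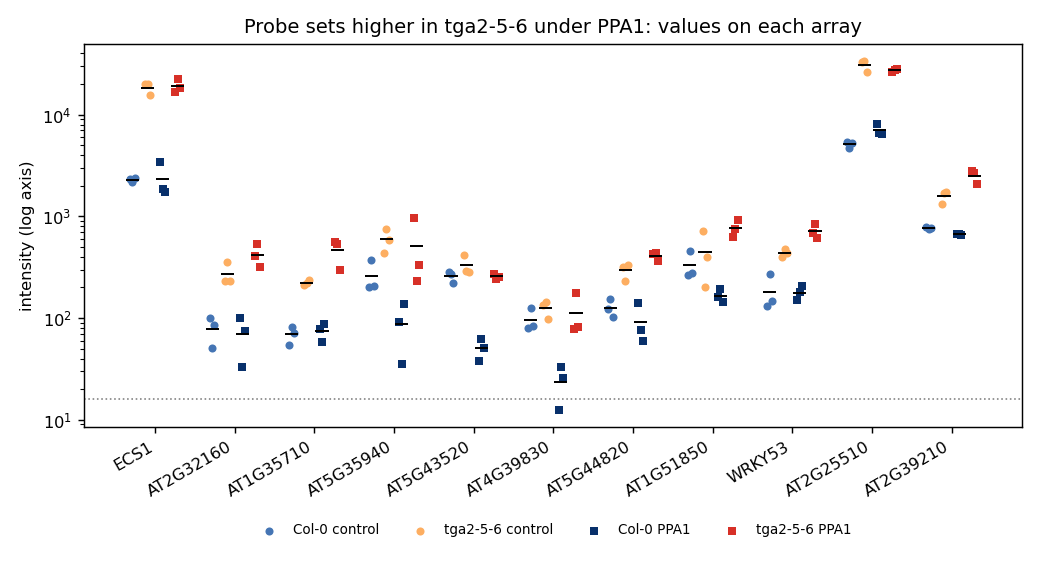
Intensity on a log10 axis of the named genes with the highest log2 differences under PPA1, of WRKY53 and of the highest genes already different in control. There is 1 point per array and 1 colour for each genotype and treatment, in control and under PPA1. ECS1 is as far apart in control as under PPA1, whereas AT5G43520 is separated under PPA1, with 37.7, 62.3 and 51.1 in Col-0 and 274, 245 and 256 in tga2-5-6.

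A few of the higher genes had lower estimates with PPA1 than in control in Col-0, and higher ones in the mutant except where stated; these were singled out after their values were seen, and in none did the difference of the responses pass. AT1G51850, a receptor-like kinase, was at 160.4, 195 and 143 in Col-0 and 622, 751 and 919.7 in tga2-5-6 under PPA1. In control the 2 genotypes overlapped, at 263, 458 and 278 in Col-0 and 723, 204 and 403 in tga2-5-6. The genotype difference under PPA1 was 2.20 ± 0.36 (adjusted p = 0.00469), and the difference of the responses 1.92 ± 0.51 (adjusted p = 0.309). AT2G44370 and AT5G40590, both with DC1 domains, had control means of 196 and 743 in Col-0 and 171 and 567 in the mutant. Under PPA1 AT2G44370 read 76.9, 115 and 144 in Col-0 and 379, 504 and 305 in tga2-5-6, and differed by 1.84 ± 0.29 (adjusted p = 0.00382). AT5G40590 read 513, 241 and 194 in Col-0 and 1559, 1552 and 835 in tga2-5-6 and differed by 2.13 ± 0.44 (adjusted p = 0.0229), a call lost in 4 of 6 fits without 1 array. AT5G43520, also with DC1 domains, fell with PPA1 in Col-0 (log2 change -2.38, adjusted p = 0.00526), and was at 274, 245 and 256 in tga2-5-6 under PPA1 against a mutant control mean of 329.8, so that both genotypes had the lower estimate with PPA1. AT2G34020, a calcium-binding protein type, was at 35.2 ± 6.60 and 166 ± 63.6 under PPA1 (adjusted p = 0.0114), and lost its call in 2 of 6 fits without 1 array.

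The probe sets that passed under PPA1 were then read in the control arrays. These had a part in choosing them only through the intensity filter and the shared estimate of the spread. A small estimate of the spread favoured a low p in both comparisons. The shares that passed or had a low p in control are therefore not independent of the choice. Of the 344, 78 passed in control in the same direction, 40 lower and 38 higher, where 0.238% and 0.297% of all probe sets tested passed in control in these directions. The 40 lower ones had a median log2 difference of -2.45 under PPA1 and -1.79 in control, and GSTU25, URE, AT5G16980, OCT5, AER and AT4G13180 were among them. The 38 higher ones had medians of 1.52 and 1.45, and ECS1, AT2G25510, WRKY53, AT2G39210 and AT1G35710 were among them. Leaving out 1 of the 12 control or PPA1 arrays left 31 to 72 probe sets in this class, with 31 without Col-0 control replicate 3. Over the 6 fits that left out 1 control array, the control call was lost in 6 for AT5G16980 and AT1G35710, in 5 for AER, WRKY53, LTI30, AT2G43620 and AT1G51790, in 4 for AT2G43610, in 3 for GSTU25, AT2G39210 and AT1G11330, in 2 for AT5G66985 and in 1 for AT1G69730. Those of URE, OCT5, ECS1, AT2G25510, AT4G13180, AT5G61820, AT5G05960 and AT4G19880 were lost in 0. With only the 6 control arrays in the fit, 19 of the 21 named or listed genes of this class lost their control call. In this class the median difference between the responses was -0.51 for the lower and 0.10 for the higher probe sets.

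Only AT1G14130 met the rule for a difference seen with the compound, that is, no call in control and a call for the difference of the responses in the same direction. For the other 265, 152 lower and 113 higher, these tests did not settle whether the difference was there without PPA1. The medians of the 152 were -1.66 under PPA1 and -0.50 in control, and those of the 113 were 1.54 and 0.73. These probe sets were chosen for passing under PPA1 and not passing in control in the same direction. Medians nearer to 0 in control were therefore favoured by the choice and do not show that the difference was absent there. In control 128 of the 152 and 86 of the 113 had an estimate within 2-fold, which the same choice favours. The share of all probe sets within 2-fold in control was not counted. Over all 193 lower probe sets, 172 or 89.1% had an estimate below 0 in control, against 45.2% of all probe sets tested. An unadjusted p under 0.05 in that direction was found in control for 101 of them, or 52.3%, against 4.73% of all. Over all 151 higher probe sets, 140 or 92.7% had an estimate above 0 in control, against 54.8% of all. An unadjusted p under 0.05 in that direction was found for 104, or 68.9%, against 7.34%.

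The difference between the responses to PPA1 itself passed for 2 probe sets, which is 0.00915% of those tested, AER and AT1G14130, both with the smaller response in tga2-5-6. An unadjusted p under 0.05 was found for 1617 probe sets. For AER the difference was -2.37 ± 0.31, with a 95% interval of -3.03 to -1.71 and adjusted p = 0.0363. For AT1G14130 it was -2.20 ± 0.29, with an interval of -2.82 to -1.57 and adjusted p = 0.0363. Each of these calls was lost in 8 of 12 fits that left out 1 array, with adjusted p up to 0.167. With only the 12 arrays of the 4 groups in the fit both calls were lost (adjusted p = 0.0791 for AER and 0.211 for AT1G14130), as they were with quantile normalization (0.0573 and 0.0608), and the replicate block ended that of AER (0.0861). Other settings raised the count. It was 26 with values under 16 set to 16, 15 when a probe set had to reach 100 on at least 3 arrays, and 31 with a trended and robust estimate of the spread. 13 probe sets passed in all 3 of these settings, 12 of them with a negative difference, tga2-5-6 minus Col-0, and 6 of the 13 had 1 gene. These were AT5G51500, AT4G36610, AT5G16980, AER, AT1G14130 and AT1G17860. In AT5G51500 the means moved in opposite directions with PPA1, from 26.3 to 155 in Col-0 and from 71.0 to below 16 in tga2-5-6. In the fit reported here AT4G36610 had a difference of -3.98 ± 0.62 (adjusted p = 0.114) and AT1G17860 one of -2.07 ± 0.35 (adjusted p = 0.122).

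**Figure D4:**
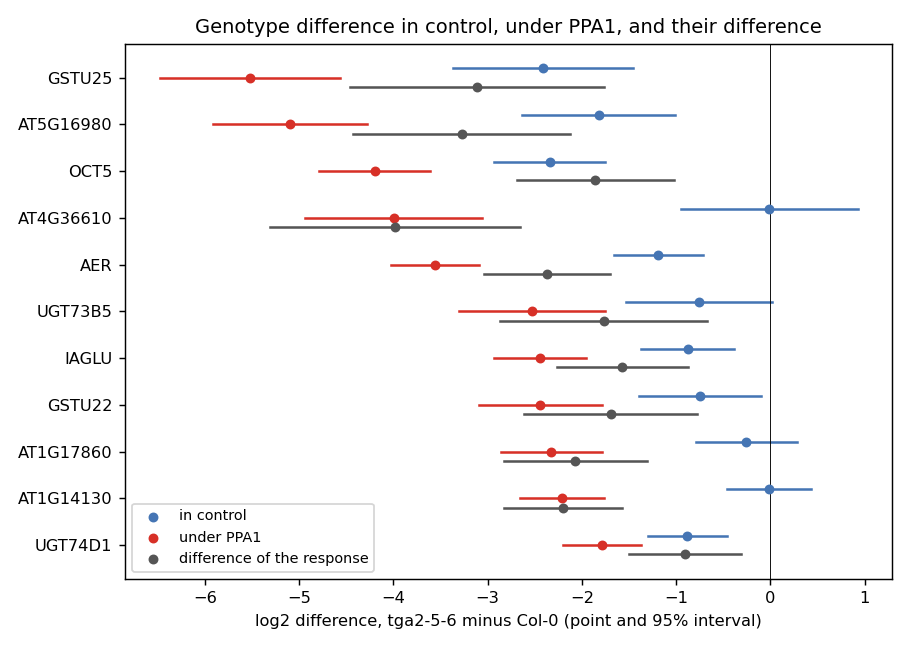
Log2 differences between tga2-5-6 and Col-0 with 95% intervals for lower genes with group means of at least 16 in control and under PPA1, in control, under PPA1 and for the difference of the 2, which is the difference of the responses. For AT1G14130 and AT4G36610 the control interval spans 0, and for OCT5 and AT5G16980 it lies below 0.

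The OPDA arrays give the same genotype comparison in plants treated with the other cyclopentenone at the same dose and time; this reading was added after the files had been seen. With OPDA 172 probe sets passed for the genotype, 0.787% of those tested. Of the 193 probe sets lower under PPA1, 61 or 31.6% passed in that direction under OPDA, where 0.402% of all did, and of the 151 higher, 52 or 34.4%, where 0.384% of all did. The median log2 difference under OPDA was -0.97 for the lower and 1.05 for the higher probe sets. An estimate in the same direction under OPDA was found for 183 of the lower (94.8%, against 49.6% of all probe sets tested) and 146 of the higher (96.7%, against 50.4%). An unadjusted p under 0.05 in that direction was found for 136 of the lower (70.5%, against 5.39%) and 110 of the higher (72.8%, against 6.1%). The OPDA arrays had a part in choosing these probe sets through the intensity filter and the shared estimate of the spread. A small estimate of the spread favoured a low p under PPA1 and under OPDA alike. The shares that passed or had a low p under OPDA are therefore not independent of the choice. GSTU25 differed by -5.54 ± 0.44 under OPDA (adjusted p = 3.95e-05), with 2968 ± 272 in Col-0 and 64.1 ± 8.74 in tga2-5-6. AER was at 1954 ± 297 and 308 ± 72.1, a log2 difference of -2.68 ± 0.22 (adjusted p = 3.95e-05). AT1G17860 was at 4852 ± 1279 and 1242 ± 126, a difference of -1.94 ± 0.25 (adjusted p = 0.00157).

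For AT1G14130 and AT4G36610 the readings with the 2 compounds are set side by side. Under OPDA AT1G14130 was at 1123, 1097 and 1172 in Col-0 and 960.2, 861 and 912 in tga2-5-6, so that both genotypes were far above their control levels. The log2 difference between genotypes was then -0.31 (adjusted p = 0.618). The genotype difference under PPA1 minus that under OPDA was -1.90 ± 0.29, with an unadjusted p of 1.6e-05 and an adjusted p of 0.209, which did not pass. AT4G36610 was at 114 ± 45.8 and 73.0 ± 35.0 under OPDA, and the corresponding difference was -3.32 ± 0.62 (adjusted p = 0.424). Over all probe sets 0 passed for this difference of differences in limma, with 956 at an unadjusted p under 0.05. A p that misses the threshold does not show that the 2 compounds acted alike.

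Of 36 gene lists and families, 29 had a measured probe set and 22 of these had none that passed under PPA1. Over all probe sets tested 1.57% passed, so the absence of a call in a list of few probe sets is near that share. The 7 measured genes of jasmonate synthesis and response had a median log2 difference of 0.10. Of these AT2G38240, of the dioxygenase type, had the largest difference, with 49.2, 55.4 and 16.3 in Col-0 and 431, 368 and 61.2 in tga2-5-6 (adjusted p = 0.096). The 29 photosynthesis genes had a median of -0.07, the 17 expansins -0.32, the 21 bZIP factors 0.01, the 12 genes of nitrate transport and assimilation -0.16 and the 5 of sulfate assimilation -0.15. 5 genes that respond to mitochondrial dysfunction had a median of -0.22, with AT5G51440, a small heat shock protein of the mitochondria, at 2257 ± 919 in Col-0 and 4046 ± 597 in tga2-5-6 (adjusted p = 0.155). The glutaredoxin gene GRX480, whose product binds TGA factors, was at 196, 200.5 and 187 in Col-0 and 509.5, 312 and 449 in tga2-5-6. Its arrays did not overlap, but it did not pass (adjusted p = 0.563). None of 5 glutaredoxins, 11 autophagy genes, 10 xyloglucan endotransglucosylases, 7 tubulins or 2 heat shock proteins passed. Only a few members of several lists had a named probe set, and 7 lists had none, so these counts say nothing of the genes that were not measured.

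**Figure D5:**
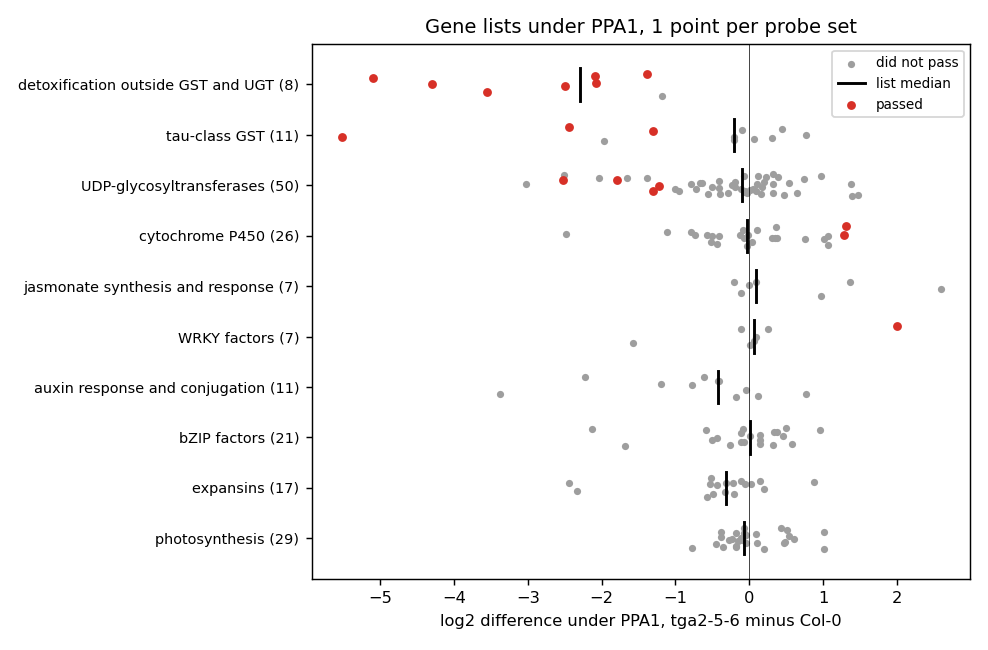
Log2 difference between tga2-5-6 and Col-0 under PPA1 for each measured probe set of selected gene lists. The number of probe sets is in brackets, those that passed are in red and the others in grey, and the list median is a black line. Lists not drawn include those of salicylic acid signalling and defence and of OCT5, which hold called members. In the detoxification list 7 of 8 points are red and below 0, and in the tau-class list 3 of 11. Of all probe sets tested 0.883% passed with the mutant lower.

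Among the 344 probe sets many had no gene in the annotation. Of the 13 that passed for the difference of the responses in all 3 of the settings above, 7 had none, and the lowest of these under PPA1, singled out after their values were seen, are given by probe set. 256589_at read 1586, 3363 and 5438 in Col-0 and 155, 76.6 and 96.2 in tga2-5-6 under PPA1. In control it was at 72.2 ± 40.7 and 46.4 ± 15.0. The genotypes differed, on the log2 scale, by -4.88 ± 0.54 under PPA1 (adjusted p = 0.000264), -0.55 ± 0.54 in control (adjusted p = 0.735) and -4.78 ± 0.54 under OPDA (adjusted p = 0.000637). 259705_at, 259040_at and 258033_at were lower under PPA1, with log2 differences of -4.20 ± 0.26, -3.69 ± 0.23 and -3.65 ± 0.22 (adjusted p = 1.59e-06, 1.75e-06 and 1.59e-06), and were also lower in control, with -2.17, -1.75 and -1.91.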

How the data were processed

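RNA from plant material was hybridised to 18 single-colour Affymetrix arrays, 6 groups of 3. The authors deposited linear intensities, which share a trimmed mean across arrays. GCRMA is named in the submitters' processing notes, but it returns log2 values, and how the deposited intensities were made is not given in the sources used here. After dropping 64 controls from the 22810 probe sets, values under 1 were raised to 1 and log2 was taken. A probe set needed an intensity of 16 or more on 3 or more arrays, which 21869 had. The files give no depth, and the 3 arrays per group limit the precision.

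limma 3.58.1 (R 4.3.3) fitted 1 mean per group to the 18 arrays, leaving 12 residual degrees of freedom. Tests were two-sided, errors are standard errors from the model, and Benjamini-Hochberg adjustment ran over the 21869 probe sets. The code was tested on simulated data. The contrasts were tga2-5-6 minus Col-0 under PPA1, in control and under OPDA, the difference of the PPA1 responses, each genotype's PPA1 response, and the genotype difference under PPA1 minus that under OPDA. A called probe set was "already in control" if it also passed there in the same direction, "with the compound" if it did not and the difference of the responses passed, and otherwise unresolved.

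Gene names come from the array's annotation, with 1 gene for 13513 probe sets, several for 503 and none for 8730, updated to TAIR10.1; 77 had no current locus. Roles of genes are background knowledge. Named were the 8 highest and 8 lowest called genes with arrays that did not overlap and a mean of at least 100 in the brighter group, the 5 highest and 5 lowest of each class and of the difference of the responses, and up to 2 each way of each list, or its largest difference; further genes were singled out after their values were seen. The members, rules and lists were chosen with earlier results of these data known. A group mean under 16 is given as below 16. Alternatives were other scalings, floors and filters, another moderation, the arrays compared alone, the replicate block and each array left out.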

Additional observations from a re-analysis of the deposited data

Results flagged for a closer look

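For 2 genes the response to PPA1 differed between the genotypes by the test of the difference itself. AER, the alkenal reductase gene, had a difference of responses, tga2-5-6 minus Col-0, of -2.37 on the log2 scale (SE 0.31, limma adjusted p = 0.0363), with a rise of 2.20 in Col-0 and a change of -0.17 in tga2-5-6. AT1G14130, the auxin dioxygenase gene, had a difference of -2.20 (SE 0.29, adjusted p = 0.0363), with a rise of 1.87 in Col-0 and a change of -0.32 in tga2-5-6. All 4 groups had 3 arrays in both genes. Both calls were lost with quantile normalization and with only the 12 arrays of these groups in the fit, that of AER also with the replicate block, and each in 8 of 12 fits that left out 1 array. Why the responses differed was not tested.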

How the results depend on the processing

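The number of probe sets called between the genotypes under PPA1 was 344, 340 with the replicate block and 238 to 302 when 1 array was left out, with 238 without tga2-5-6 PPA1 replicate 1; of 82 named or listed genes 3 changed the sign of their estimate in a setting, and 0 of these had passed under PPA1. Deviations of same-numbered arrays correlated at -0.0434 to 0.0673, with 0 of 21 pairs above 0.1. Of the 21, 11 matched best with their own number, so these values do not settle whether the replicate numbers pair the samples. The replicate block left 1 call for the difference of the responses. With only the arrays compared in the fit, which have fewer degrees of freedom, the counts were 89 under PPA1 (31 higher, 58 lower), 6 in control, 0 for the difference of the responses, 221 and 94 for the PPA1 response in Col-0 and in tga2-5-6. The classes were refitted on the 12 arrays of the 4 control and PPA1 groups, where 296 passed under PPA1 and 69 in control, which gave 50 already in control and 0 with the compound. Values under 16 set to 16 gave 26 for the difference of the responses, 2 for PPA1 minus OPDA and 13 with the compound. The filter at 100 gave 15 and 10, and the trended and robust moderation 31, 1 and 20. Quantile normalization gave 0 for the difference of the responses and 0 with the compound. With no minimum fold the response in tga2-5-6 had 985 calls, against 592, of which 312 were higher and 280 lower, a split of 390 to 212 after median centring and 360 to 176 after quantile normalization. The response in Col-0 had 546.

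Leaving out 1 array gave 43 to 86 calls in control against 117, lowest without Col-0 control replicate 3, 0 to 7 for the difference of the responses, 351 to 622 for the response in Col-0, 361 to 630 in tga2-5-6, 0 to 2 for PPA1 minus OPDA, 31 to 72 already in control, 0 to 5 with the compound and 175 to 302 not resolved. Of 61 named or listed genes that passed under PPA1, 46 kept their call in each such fit, and 42 lost it with only the 6 arrays, 4 with the replicate block, 3 with quantile normalization and 1 with no filter; the cause was not tested. Values near the floor have no reliable order, and a gene without a named probe set was not read.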
